A study of Mus musculus with 6 samples.

Results

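Genes that act in the G2 phase and in mitosis were followed in primary mouse epidermal keratinocytes, 50 of the 30349 genes listed, in 3 p63 alphaKO and 3 wild type libraries. The members are a set of gene symbols chosen for their known part in cell division, and all 50 were found in the table. They were sorted by role into 12 genes of cyclins, kinases and the ubiquitin ligase that ends mitosis, 15 genes of the kinetochore, the spindle checkpoint and the passenger complex, 16 genes of kinesins, the spindle and cytokinesis, and 7 genes of chromosome structure. Cells were isolated from mouse epidermis on postnatal day 2 and cultured until confluent, which took 5 to 6 days. The medium held EGF at 2.5 ng/mL, chelated serum at 4% and calcium at 0.05 mM, and such low calcium keeps keratinocytes basal and able to divide. RNA was read as 3' digital gene expression, in which reads come from the 3' ends of transcripts, and levels are given in CPM, counts per 1000000 reads. The p63 alphaKO group (replicates 9, 10 and 11) carries a genotype of that name at Trp63, which encodes p63, the transcription factor of stratified epithelia. The wild type group (replicates 13, 14 and 15) carries none. Neither the altered part of the gene nor the animal or litter behind each library is given in the labels, so p-values measure the spread between these libraries, which may be technical.

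Entry into mitosis is driven by cyclins A2, B1 and B2 bound to the kinase Cdk1. Polo-like and Aurora kinases build the spindle, kinetochores tie chromosomes to it, and the checkpoint holds the anaphase-promoting complex, a ubiquitin ligase, until each chromosome is attached. Most genes of this machinery are transcribed in G2 and mitosis and repressed in resting cells by the DREAM complex, which binds CHR elements in their promoters, often with CCAAT boxes bound by NF-Y nearby. In the epidermis such RNAs are found in dividing basal cells and hair follicles and are low in the differentiated layers.

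The libraries held 2188705, 2999246 and 1699716 reads in p63 alphaKO replicates 9, 10 and 11, and 3146374 to 3215333 reads in wild type, and 3 reads, the limit that a count of 0 allows, are worth 0.93 to 1.76 CPM. The basal keratin Krt5 was abundant in each library, at 8471 to 11423 CPM in p63 alphaKO and 10298 to 10883 CPM in wild type. Replicates p63 alphaKO 11 and wild type 15 stood apart from the other libraries, so a log2 fold change of a named gene that moves by over 1.5 times without one of them is given without it as well. Skeletal muscle markers (14 genes, Myh3 and Myh8 at 0 in each library) had sums of 36.1, 44.7 and 117 CPM in p63 alphaKO, against 113, 117 and 823 CPM in wild type, in order of replicate. All 9 of them that were tested had a log2 fold change below 0 (median -2.29). At an unadjusted p under 0.05, 8 were lower, beside 3.35% of all genes tested. Des, at 0 in each p63 alphaKO library, passed the filter of a mean of 1 CPM only through wild type, so its direction was fixed. Without wild type 15, 8 markers were tested, with a median of -1.46 and 3 lower at that level, beside 3.75% of all genes. Over all genes tested, the genes with transcripts of 4660 bases or more lay at -0.29 in p63 alphaKO 11 and -0.16 in wild type 15 relative to the mean of the 6 libraries (median, log2 scale), against 0.07 to 0.19 in the other 4. Markers of differentiating keratinocytes (10 genes) had sums of 4894.9, 8689.3 and 5664.3 CPM in p63 alphaKO, against 7727.2, 8213.8 and 7826.2 CPM in wild type. Of the 10, 8 had a log2 fold change below 0 (median -0.49), and 4 were lower at an unadjusted p under 0.05, beside 3.35% of all genes. Krt1, the keratin of the first suprabasal layer, was at 74.4, 31.0 and 47.6 CPM in p63 alphaKO, against 185, 249 and 401 CPM in wild type (-2.44, limma adjusted p = 0.00686), and was the 1 gene of all tested that was called lower. The part of these markers in the mitosis levels was not tested. The melanocyte list (9 genes) summed to 552, 1026 and 232 CPM in p63 alphaKO and to 823, 756 and 308 CPM in wild type, the fibroblast list (9 genes) to 5.88 to 46.3 CPM in p63 alphaKO and 18.8 to 48.4 CPM in wild type, and endothelial and immune lists to at most 5.29 CPM in any library.

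The mitosis genes lay lower in p63 alphaKO keratinocytes as a group, without a single one past the threshold. Their levels added up to 2439, 2633 and 2262 CPM (mean 2445 ± 186, SD, n = 3) in p63 alphaKO 9, 10 and 11, against 2850, 3170 and 5005 CPM (3675 ± 1163) in wild type 13, 14 and 15. The groups did not overlap, wild type 15 stood far above the other libraries, and the gap between the nearest libraries (p63 alphaKO 10 and wild type 13) was small. The comparison asks whether keratinocytes of the p63 alphaKO genotype differ from wild type in the RNAs of cell division. In bulk RNA, fewer dividing cells and less RNA per dividing cell cannot be told apart. All 50 genes passed the filter of a mean of 1 CPM over the 6 libraries, and 49 of the 50 had a log2 fold change (p63 alphaKO minus wild type, on log2(CPM + 1)) below 0, where 49.3% of all 11716 genes tested did. Their median was -0.62, 1.53-fold higher in wild type, beside 0.01 over all genes tested, and the range was -1.25 to 0.30. At 2-fold or more lower stood 2 members, Ccna2 and Kif2c, beside 2.36% of all genes. The members also moved together within wild type, so they are not 50 independent observations. Against the mean of the other wild type libraries, on the log2(CPM + 1) scale, wild type 13 was lower for 46 of the 50. Wild type 14 was lower for 40 and wild type 15 for 1. Over all genes tested these shares were 44.2%, 49.5% and 52.1%.

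No member passed an adjusted p of 0.05 in limma's test with Benjamini-Hochberg adjustment over all 11716 genes (background 0.00854% called lower, 1 gene), and the smallest was 0.377 for Ccna2. At an unadjusted p under 0.05 there were 17 of the 50, all lower, where 3.35% of all genes were lower at that level. Without wild type 15 there were 6, beside 3.75% of all genes, and without both wild type 15 and p63 alphaKO 11 there were 11, beside 5.17%. Likewise 0 members were called by edgeR (0.00854% of genes called lower, smallest adjusted p 0.272) and 0 by DESeq2 (0.0683%, smallest adjusted p 0.0804), both on whole reads recovered from the CPM. At an unadjusted p under 0.05, 20 members were lower in edgeR, beside 412 of all 11716 genes, and 19 in DESeq2, beside 350. In 16 members all p63 alphaKO libraries lay below all wild type libraries, beside 5.09% of all genes tested. In none did they all lie above, beside 756 of all 11716 genes.

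**Figure D1:**
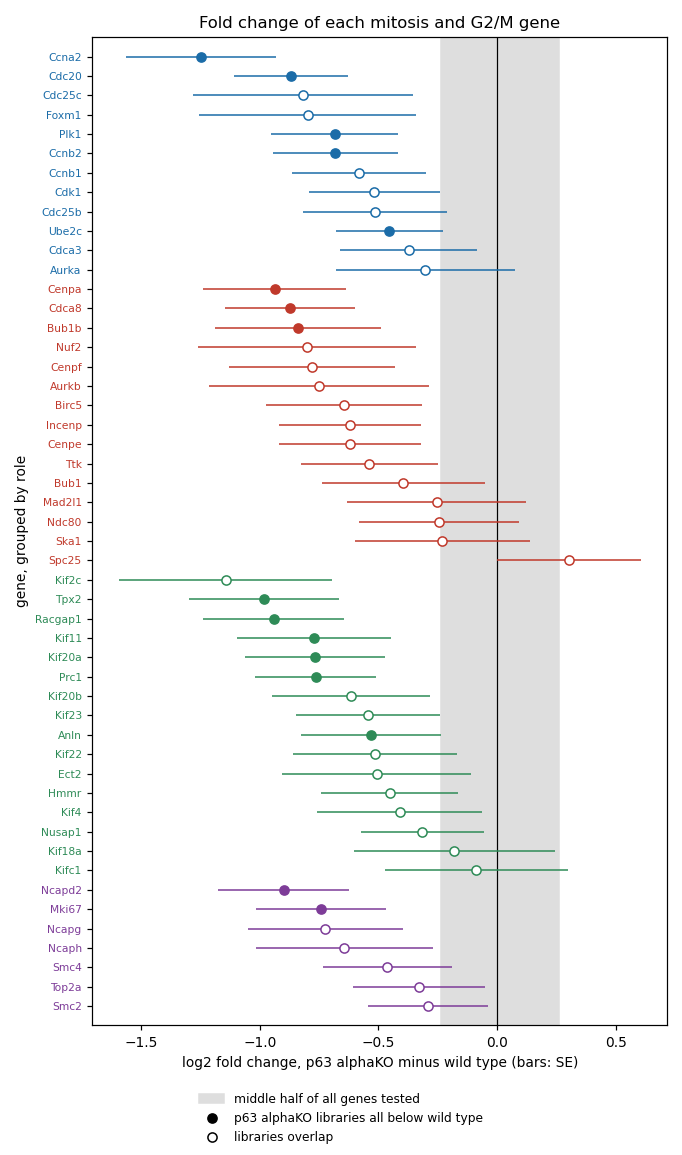
Log2 fold change, p63 alphaKO minus wild type, of each of the 50 genes on the horizontal axis with its SE from limma, grouped by role; filled points are genes whose p63 alphaKO libraries all lie below the wild type libraries and the grey band runs between the 25th and 75th percentiles of all genes tested. Points run from Ccna2 at -1.25 to Spc25 at 0.30, and 49 of 50 lie left of 0.

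One wild type library carried much of the difference in size. Wild type 15 was the highest of the 6 libraries for 46 of the 50 genes, and its level was a median of 1.64 times the mean of replicates 13 and 14 (range 0.963 to 2.87), where the median over all genes tested was 0.958. Without wild type 15 the median log2 fold change of the mitosis genes was -0.38 with 44 of 50 below 0, and without both wild type 15 and p63 alphaKO 11 it was -0.27 with 42 of 50 below 0. Gene by gene, the log2 fold change came nearer to 0 by over 1.5 times for 22 members without wild type 15 and changed sign for another 5 (Aurka, Mad2l1, Ndc80, Ska1 and Kif18a). Without p63 alphaKO 11 it came nearer to 0 by that much for 13 members and moved away from 0 for 8, and without both libraries it came nearer for 27 and changed sign for 7. All 3 p63 alphaKO libraries lay below both wild type 13 and wild type 14 for the same 16 members, beside 11.9% of all genes tested, and p63 alphaKO 9 and 10 lay below both for 21, beside 19.1%. With both libraries left out no member passed limma's adjusted p of 0.05, where 0.353% of genes were called lower, and the smallest was 0.285 for Cdc20. Over the 9 pairs of 1 p63 alphaKO and 1 wild type library, 35 to 50 of the members were lower in the p63 alphaKO library, with medians of the log2 difference from -0.21 (p63 alphaKO 10 against wild type 13) to -1.29 (p63 alphaKO 11 against wild type 15). In 4 classes of transcript length, from the shortest to the longest, the members in wild type 15 lay at 0.78, 0.75, 0.82 and 0.71 relative to the mean of the 6 libraries (median, log2 scale). All genes tested with a length lay at 0.11, 0.0, -0.07 and -0.16 in the same classes of that library. In p63 alphaKO 11 the members lay at -0.49, -0.26, -0.28 and -0.55, and all genes at 0.24, 0.02, -0.1 and -0.29. The part of transcript length in the mitosis levels was not tested. The summed muscle markers were highest in wild type 15, and their part in the mitosis levels was not tested.

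**Figure D2:**
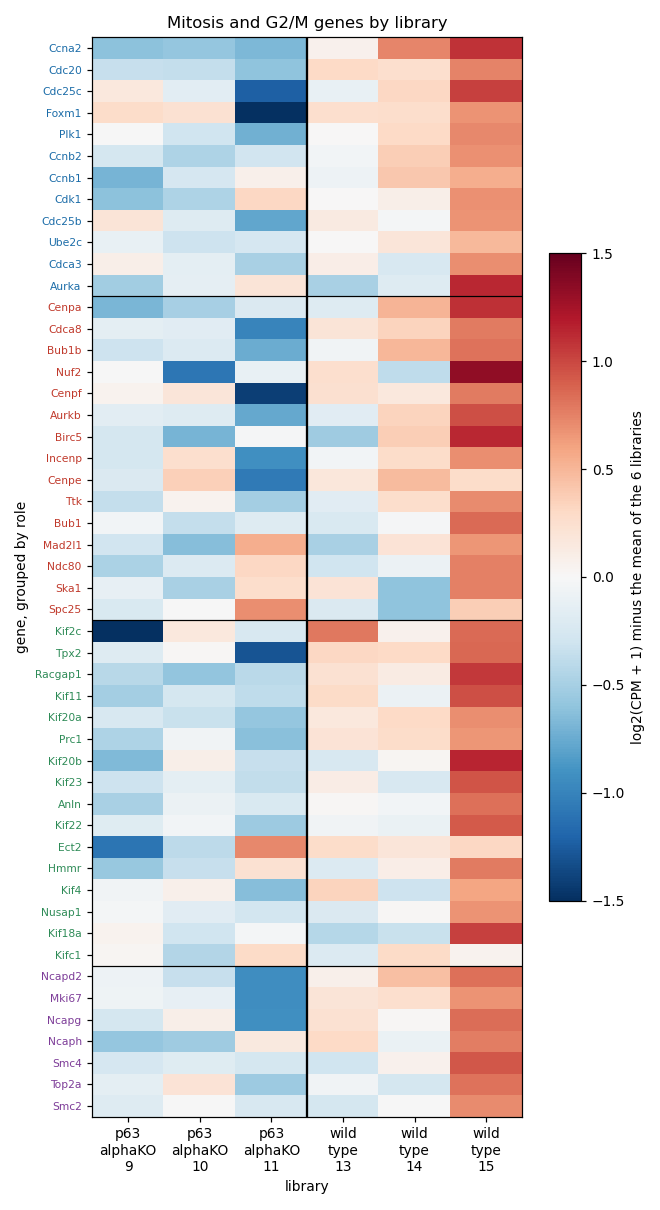
Level of each of the 50 genes (rows, grouped by role) in each library (columns, p63 alphaKO left), as log2(CPM + 1) minus the mean of the 6 libraries. Wild type 15 is the highest library for 46 of 50 genes, and p63 alphaKO 11 the lowest for 25.

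**Figure D3:**
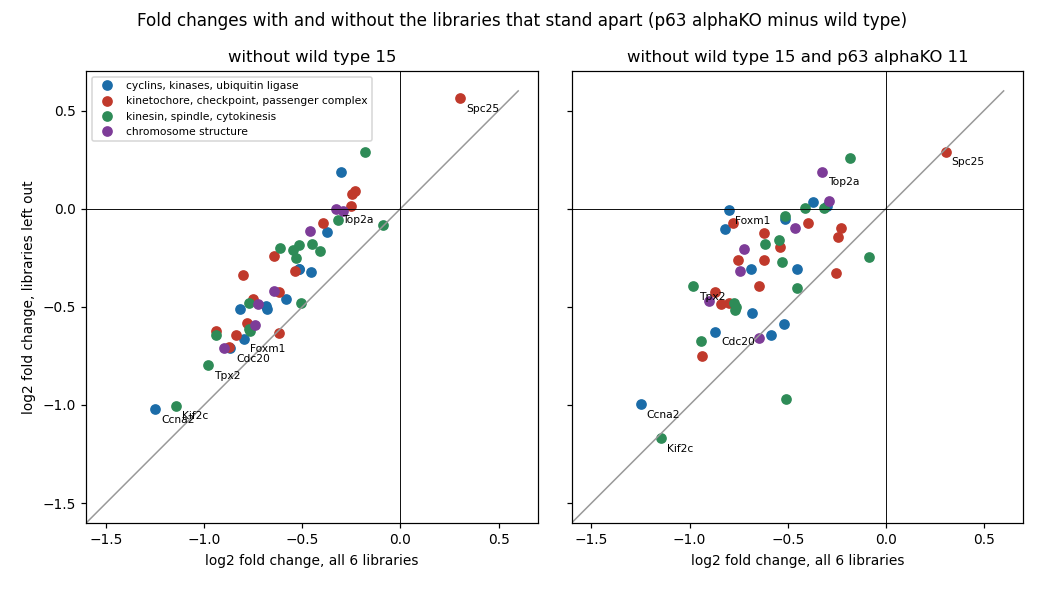
Log2 fold change of each gene with all 6 libraries (horizontal axis) against the value without wild type 15 (left) or without wild type 15 and p63 alphaKO 11 (right), colored by role, with a grey line of equal values. Most points lie above the line, nearer to 0, and 44 and 42 of the 50 genes stay below 0.

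The promoters of these genes were searched for 2 sequence elements, picked because they are known in promoters of genes expressed in G2 and mitosis. A high share among the members is therefore not an independent finding. RefSeq promoters on GRCm38.p6, from 250 bases before to 50 bases after the start site, were given for 41 of the 50. A CCAAT box (CCAAT on either strand) was found for 31 of the 41 genes (75.6%), beside 41.1% of all 27025 genes with a promoter. The CHR element TTTGAA, on either strand, was found for 31 of 41 (75.6%), beside 20.2% of all genes, and with the variant TTCGAA, which is its own reverse complement, for 33 (80.5%), beside 21.7%. Both kinds of element stood in the promoters of 29 (70.7%), beside 8.61%. In all 29 a CCAAT box preceded a CHR element, beside 1244 of the 2328 genes with both among all genes. The smallest such gap of each gene, over all its matches and windows, had a median of 34 bases from start to start (quartiles 25 and 47). It was 58 bases in the 1244 of all genes with that order. More matches in a promoter tend to make that order more frequent and the smallest gap shorter. The counts and medians are therefore not a like comparison of order or spacing. Of the 48 CHR matches in the members, 34 began within 50 bases of the start site, on either side. Matches of Ect2 and Prc1 were counted in each of their overlapping windows, so some sites enter more than once. Stretches of 100 bases that end at the base before the start site are printed for 6 of the 7 members in which both elements lie there. Kif22 is not printed. Ccnb1, where the window holds CCAAT boxes and no CHR match, is printed as well. Capitals mark the matches, read on either strand, 5′ to 3′ along the gene.

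Cdc20 (chr4:118437344-118437443, minus strand): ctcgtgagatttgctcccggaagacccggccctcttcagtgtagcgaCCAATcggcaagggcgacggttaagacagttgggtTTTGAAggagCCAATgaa
Prc1 (chr7:80294376-80294475, plus strand): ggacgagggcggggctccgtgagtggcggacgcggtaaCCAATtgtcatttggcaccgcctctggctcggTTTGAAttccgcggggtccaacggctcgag
Kif11 (chr19:37376282-37376381, plus strand): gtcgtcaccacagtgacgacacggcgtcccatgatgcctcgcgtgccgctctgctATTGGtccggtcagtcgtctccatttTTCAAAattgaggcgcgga
Ube2c (chr2:164769829-164769928, plus strand): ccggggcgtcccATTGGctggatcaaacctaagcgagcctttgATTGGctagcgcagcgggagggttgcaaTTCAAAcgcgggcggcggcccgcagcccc
Cdk1 (chr10:69352913-69353012, minus strand): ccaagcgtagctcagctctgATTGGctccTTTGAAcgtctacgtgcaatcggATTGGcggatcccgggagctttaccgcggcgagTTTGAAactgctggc
Top2a (chr11:99024190-99024289, minus strand): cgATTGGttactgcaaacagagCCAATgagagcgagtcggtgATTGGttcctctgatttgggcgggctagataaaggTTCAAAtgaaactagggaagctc
Ccnb1 (chr13:100786487-100786586, minus strand): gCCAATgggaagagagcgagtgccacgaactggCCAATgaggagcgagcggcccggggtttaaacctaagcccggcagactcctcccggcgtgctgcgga

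In Cdc20, Kif11, Ube2c, Cdk1 and Top2a a CHR match begins 15 to 29 bases before the start site, and in Prc1, for which RefSeq gives 2 windows, 30 bases before the start of the one printed. Members with both had a median log2 fold change of -0.54 (28 of 29 below 0), and the 12 members without both had -0.60 (12 below 0). Among the tested genes that are not members, 592 had both elements, with a median of -0.01 and 51.5% below 0, beside 49.1% of the 8477 without both. A match to these letters is a description of the sequence and does not show that a factor binds it.

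**Figure D4:**
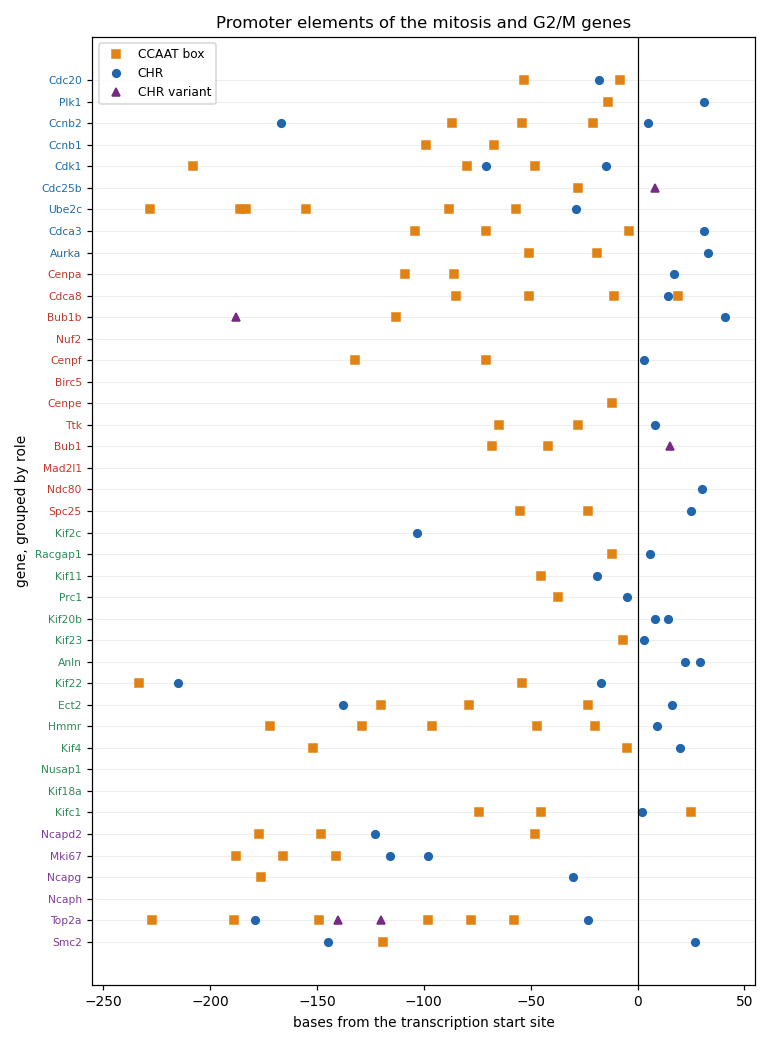
Position of each CCAAT box, CHR element and CHR variant, in bases from the transcription start site, in the 41 promoters (rows, grouped by role; of genes with more than 1 start, the window of lowest coordinate). CHR matches gather around the start site and CCAAT boxes upstream of it, and empty rows hold no match. Over all windows, those not drawn included, the median position of the CCAAT boxes was -69.5 bases.

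Among the genes that drive mitosis, Ccna2 and Cdc20 differed most. For the 12 cyclin, kinase and ubiquitin ligase genes all values were below 0 (median -0.63, and -0.31 without both wild type 15 and p63 alphaKO 11). Of the 12, 4 were lower at an unadjusted p under 0.05, beside 3.35% of all genes tested, and 0 passed the threshold. In 5 all p63 alphaKO libraries lay below all wild type libraries, beside 5.09% of all genes. Values below are in CPM, in p63 alphaKO replicates 9, 10 and 11, against wild type replicates 13, 14 and 15. Ccna2, encoding cyclin A2, the partner of Cdk1 and Cdk2 in S phase and G2, was at 15.98, 16.33 and 15.28 CPM in p63 alphaKO, against 26.08, 42.28 and 54.00 CPM in wild type. The p63 alphaKO libraries lay close together and below each wild type library, while the wild type libraries were spread widely. The log2 fold change was -1.25 (SE 0.32, n = 3 per group, limma adjusted p = 0.377), a 2.38-fold higher level in wild type, and it was -1.02 without wild type 15. On the pooled reads the p63 alphaKO level was 0.392 of the wild type level, with an exact 95% interval of 0.314 to 0.485 that covers counting error alone.

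Cdc20, the activator of the anaphase-promoting complex and the target of the spindle checkpoint, was at 69.87, 69.31 and 58.19 CPM in p63 alphaKO, against 109.97, 106.00 and 150.25 CPM in wild type. The groups were well separated with wild type 15 included or not, and the log2 fold change was -0.87 (SE 0.24, limma adjusted p = 0.475) with all libraries and -0.71 without wild type 15. Plk1, polo-like kinase 1, which acts from mitotic entry to cytokinesis, was at 81.74, 66.32 and 49.37 CPM in p63 alphaKO, against 82.32, 101.03 and 136.27 CPM in wild type (-0.69, SE 0.27, 0.729), so that p63 alphaKO 9 and wild type 13 lay side by side. Ccnb2, cyclin B2, was at 42.47, 36.99 and 41.73 CPM in p63 alphaKO, against 49.96, 66.83 and 83.22 CPM in wild type (-0.68, SE 0.26, 0.729). Ube2c, the ubiquitin-conjugating enzyme of the anaphase-promoting complex, also did not overlap, at 122.38, 106.97 and 111.09 CPM in p63 alphaKO, against 133.85, 150.77 and 186.46 CPM in wild type, a smaller log2 fold change of -0.45.

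Ccnb1 and Cdk1, cyclin B1 and its kinase, overlapped between the groups through p63 alphaKO 11. Cdk1 was at 76.72, 85.64 and 146.94 CPM in p63 alphaKO, against 118.77, 126.21 and 190.91 CPM in wild type, and its log2 fold change was -0.52 with all libraries, -0.80 without p63 alphaKO 11 and -0.31 without wild type 15. Ccnb1 was at 29.23, 39.99 and 50.55 CPM in p63 alphaKO, against 45.56, 63.73 and 70.20 CPM in wild type (-0.58, -0.77 without p63 alphaKO 11 and -0.38 without p63 alphaKO 9). Foxm1, the forkhead factor that activates G2 and mitosis genes, showed the opposite dependence. It was at 16.90, 16.33 and 3.53 CPM in p63 alphaKO, against 16.65, 16.79 and 22.55 CPM in wild type, so replicates 9 and 10 were level with wild type 13 and 14, and p63 alphaKO 11 held 6 reads. Its log2 fold change was -0.80 with all libraries, -0.15 without p63 alphaKO 11 and -0.01 without both p63 alphaKO 11 and wild type 15. The phosphatases Cdc25b (-0.52) and Cdc25c (-0.82), which activate Cdk1, and Cdca3 (-0.37), a trigger of mitotic entry, overlapped, and Cdc25c had as few as 4 reads, in p63 alphaKO 11. Without that library Cdc25b stood at -0.26, Cdc25c at -0.41 and Cdca3 at -0.22, and without wild type 15 they stood at -0.31, -0.51 and -0.12. Aurka, the Aurora kinase of centrosomes and the spindle poles, had the largest p of the group. It was at 19.64, 25.99 and 32.92 CPM in p63 alphaKO, against 20.11, 24.87 and 63.85 CPM in wild type (-0.30, SE 0.38, limma adjusted p = 0.946), and its log2 fold change was 0.19 without wild type 15 and -0.48 without p63 alphaKO 11.

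Genes of the kinetochore, the checkpoint and the passenger complex were more mixed. Of 15, 14 had a value below 0 (median -0.62, and -0.34 without wild type 15). At an unadjusted p under 0.05, 4 were lower, beside 3.35% of all genes tested, and 0 passed the threshold. In 3 all p63 alphaKO libraries lay below all wild type libraries, beside 5.09% of all genes. Cenpa, the histone H3 variant that marks centromeres, was at 39.73, 45.32 and 55.25 CPM in p63 alphaKO, against 56.24, 92.01 and 139.13 CPM in wild type (-0.94, SE 0.30, limma adjusted p = 0.646). Its groups nearly met at p63 alphaKO 11 and wild type 13, and its value was -0.62 without wild type 15. Cdca8, which encodes borealin, a passenger complex subunit, was at 77.63, 76.65 and 42.91 CPM in p63 alphaKO, against 98.97, 109.11 and 148.34 CPM in wild type (-0.87, SE 0.27, 0.646). Bub1b, the checkpoint kinase BubR1, was at 11.42, 12.33 and 8.23 CPM in p63 alphaKO, against 13.82, 20.83 and 26.05 CPM in wild type (-0.84, SE 0.35, 0.758). Cenpf, a large kinetochore protein, was at 79.46, 86.98 and 28.21 CPM in p63 alphaKO, against 90.18, 85.17 and 132.14 CPM in wild type (-0.78, SE 0.35, 0.767). Here p63 alphaKO 10 lay above wild type 14, and the value was -0.27 without p63 alphaKO 11.

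The other passenger complex genes overlapped as well, at -0.65 for Birc5, which encodes survivin, -0.62 for Incenp, the scaffold, and -0.75 for Aurkb, the kinase, which had 4 to 32 reads per library. Birc5 stood at -0.24 and Aurkb at -0.46 without wild type 15, and without p63 alphaKO 11 Incenp stood at -0.32. Birc5 was at 105.94, 77.98 and 125.78 CPM in p63 alphaKO, against 87.35, 164.13 and 279.85 CPM in wild type, and wild type 13 was among the p63 alphaKO libraries. The NDC80 complex, which holds microtubules at the kinetochore, was uneven with all libraries. Nuf2 stood at -0.80 and Ndc80 at -0.25, and Spc25, a subunit of the same complex, was the 1 member with a value above 0. Without wild type 15 Nuf2 stood at -0.34, Ndc80 at 0.07 and Spc25 at 0.56, and without p63 alphaKO 11 Ndc80 stood at -0.46 and Spc25 at 0.03. Spc25 was at 52.52, 61.32 and 100.51 CPM in p63 alphaKO, against 52.79, 40.41 and 79.73 CPM in wild type (0.30, SE 0.30, limma adjusted p = 0.926), and was highest in p63 alphaKO 11. Ska1, a microtubule-binding kinetochore protein with the largest p of the group, was at 17.35, 13.33 and 22.92 CPM in p63 alphaKO, against 21.99, 12.12 and 32.72 CPM in wild type (-0.23, SE 0.37, 0.973; 0.09 without wild type 15 and -0.42 without p63 alphaKO 11). The checkpoint genes Ttk (-0.54), Bub1 (-0.39) and Mad2l1 (-0.25) and the kinetochore motor Cenpe (-0.62) overlapped between the groups. Ttk stood at -0.32, Bub1 at -0.07 and Mad2l1 at 0.01 without wild type 15, and without p63 alphaKO 11 Mad2l1 stood at -0.59 and Cenpe at -0.24.

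Genes of kinesins, the spindle and cytokinesis all had values below 0 (16 of 16, median -0.54, and -0.24 without wild type 15). Of these, 6 were lower at an unadjusted p under 0.05, beside 3.35% of all genes tested, and 0 passed the threshold. In 6 all p63 alphaKO libraries lay below all wild type libraries, beside 5.09% of all genes. Racgap1, a subunit of the centralspindlin complex that positions the cleavage furrow, was at 26.94, 23.66 and 27.04 CPM in p63 alphaKO, against 42.42, 39.48 and 76.87 CPM in wild type (-0.94, SE 0.30, limma adjusted p = 0.646). Its p63 alphaKO libraries were close together and well below each wild type library. Prc1, which bundles microtubules of the spindle midzone, was at 50.69, 67.98 and 45.26 CPM in p63 alphaKO, against 81.06, 85.80 and 112.45 CPM in wild type (-0.76, SE 0.25, 0.646). Tpx2, the activator of Aurora A on spindle microtubules, was at 60.28, 69.98 and 27.63 CPM in p63 alphaKO, against 86.09, 85.49 and 126.42 CPM in wild type (-0.98, SE 0.32, 0.646). Tpx2 separated the groups in each library, but its value was -0.58 without p63 alphaKO 11.

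Kif20a, a kinesin of the midzone, was at 21.01, 19.66 and 16.46 CPM in p63 alphaKO, against 27.96, 31.09 and 41.29 CPM in wild type (-0.77, SE 0.30, limma adjusted p = 0.729). Kif11, the motor that pushes spindle poles apart, and Anln, which encodes the furrow protein anillin, were the other two that did not overlap, at -0.77 and -0.53 (-0.48 and -0.25 without wild type 15). Kif2c, a kinesin that takes microtubules apart at centromeres, had a log2 fold change of -1.14 and overlapping groups, with 6, 36 and 15 reads in p63 alphaKO, against 61, 36 and 63 reads in wild type, and it was -0.61 without p63 alphaKO 9. Racgap1's partner in centralspindlin, Kif23, stood at -0.55 (-0.21 without wild type 15) and overlapped. Ect2, the exchange factor that centralspindlin recruits, was at 7.76, 13.33 and 29.98 CPM in p63 alphaKO, against 21.68, 20.21 and 22.24 CPM in wild type (-0.51). Without p63 alphaKO 11, its highest library, Ect2 stood at -0.997, and without p63 alphaKO 9, its lowest, at -0.09. Kifc1, a kinesin that moves to microtubule minus ends, had the largest p of the group, at 8.68, 6.00 and 10.58 CPM in p63 alphaKO, against 7.23, 10.57 and 8.89 CPM in wild type (-0.09, SE 0.39, 0.995; -0.25 without p63 alphaKO 11). The remaining 6 genes of this group, Hmmr, Nusap1, Kif4, Kif18a, Kif20b and Kif22, overlapped and lay between -0.18 and -0.62. With wild type 15 left out Hmmr stood at -0.18, Nusap1 at -0.06, Kif4 at -0.22, Kif18a at 0.29, Kif20b at -0.20 and Kif22 at -0.18, and without p63 alphaKO 11 Hmmr stood at -0.68 and Kif4 at -0.19.

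**Figure D5:**
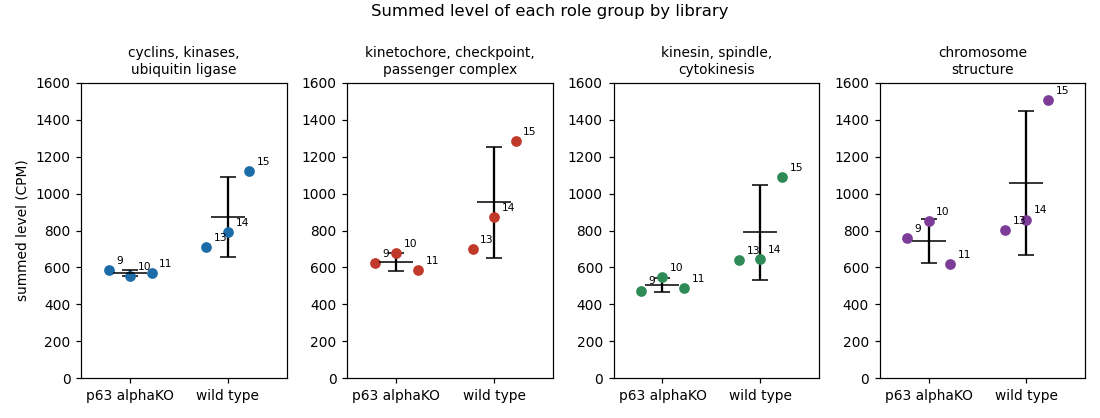
Summed level in CPM of the genes of each role in each library (points, numbered by replicate), with the mean and SD of 3 libraries per group (bars). In the first 3 groups each p63 alphaKO library lies below each wild type library, and in the chromosome structure genes p63 alphaKO 10 lies above wild type 13.

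Genes of chromosome structure had 7 of 7 values below 0 (median -0.64, and -0.42 without wild type 15). Of the 7, 3 were lower at an unadjusted p under 0.05, beside 3.35% of all genes tested, and 0 passed the threshold. In 2 all p63 alphaKO libraries lay below all wild type libraries, beside 5.09% of all genes. Mki67, which encodes the proliferation antigen Ki-67 that coats mitotic chromosomes, was at 72.61, 69.65 and 39.38 CPM in p63 alphaKO, against 87.03, 90.46 and 121.34 CPM in wild type (-0.74, SE 0.27, limma adjusted p = 0.729). Ncapd2, a subunit of condensin I, the complex that compacts chromosomes, was at 78.54, 64.98 and 42.91 CPM in p63 alphaKO, against 87.03, 113.46 and 147.71 CPM in wild type (-0.90, SE 0.28, 0.646). For both genes p63 alphaKO 11 was the lowest library and p63 alphaKO 9 came nearest to wild type 13, and Mki67 stood at -0.46 without p63 alphaKO 11. The other condensin I subunits overlapped between the groups. Ncapg was at 24.66, 31.66 and 15.28 CPM in p63 alphaKO, against 34.88, 30.15 and 54.00 CPM in wild type (-0.72, SE 0.33, 0.767; -0.45 without p63 alphaKO 11). Ncaph was at 7.76, 8.0 and 13.52 CPM in p63 alphaKO, against 15.08, 11.19 and 21.28 CPM in wild type (-0.64, SE 0.37, 0.836; -0.42 without wild type 15).

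The core condensin ATPases and the topoisomerase depended on wild type 15. Top2a, topoisomerase II alpha, which untangles sister chromatids, was the member of highest level, at 264.40, 339.24 and 201.02 CPM in p63 alphaKO, against 282.47, 244.02 and 518.40 CPM in wild type (-0.33, SE 0.28, limma adjusted p = 0.913). Its log2 fold change was -0.002 without wild type 15, -0.14 without p63 alphaKO 11 and 0.19 without both wild type 15 and p63 alphaKO 11. Smc4 was at 160.74, 168.95 and 159.87 CPM in p63 alphaKO, against 155.22, 200.19 and 367.52 CPM in wild type (-0.46, SE 0.27, 0.838). Smc2, its partner, was at 149.33, 169.95 and 144.00 CPM in p63 alphaKO, against 141.70, 170.04 and 278.58 CPM in wild type (-0.29, SE 0.25, 0.914). Without wild type 15 they stood at -0.11 and -0.01.

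Within the p63 alphaKO group, replicate 11 was the lowest of the 3 for 27 members and the highest for 14, and its ratio to the mean of replicates 9 and 10 ran from 0.212 (Foxm1) to 2.84 (Ect2), with a median of 0.914, beside 0.941 over all genes tested. The ratio was 0.67 or less for 14 of the 50, beside 26.3% of all genes tested, and 1.5 or more for 7, beside 20.2%, so both shares were near or below those over all genes. Low there beside Foxm1 were Cenpf (0.339), Cdc25c (0.342), Tpx2 (0.424) and Cenpe (0.443), and high beside Ect2 were Mad2l1 (2.08), Cdk1 (1.81), Spc25 (1.77) and Ncaph (1.72). Depth was least in this library, with 4 to 342 reads per member (median 55), beside 6 to 1018 in the other p63 alphaKO libraries. In wild type 15 the ratio to replicates 13 and 14 was above 1 for 48 members, and at least 1.5 for 32, beside 15.6% of all genes tested.

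Other genes of the cell cycle, from lists of genes that are not members, gave 0 calls in either direction (limma adjusted p over all genes). Over all 11716 genes tested only 1 was called lower and 4 higher. The other spindle, kinesin and cytokinesis genes had 24 of 27 tested genes below 0 (median -0.41, and -0.20 without wild type 15 and p63 alphaKO 11). At an unadjusted p under 0.05, 7 of them were lower, beside 3.35% of all genes tested. None were higher, beside 353 of all 11716 genes. Cep55, which brings the abscission machinery to the midbody, was at 2.28, 6.66 and 6.47 CPM in p63 alphaKO, against 11.94, 16.48 and 15.56 CPM in wild type (-1.44, SE 0.42, limma adjusted p = 0.531), with groups that did not overlap and a value of -1.39 without wild type 15. Spag5, a spindle protein, stood at -1.03. The other mitotic kinases, cyclins and phosphatases had 12 of 14 below 0 (median -0.46, and -0.24 without wild type 15), with Cdc25a at -0.72 and Cks2, a Cdk1 subunit, at -1.29 (-0.84 without p63 alphaKO 11). At an unadjusted p under 0.05, 3 of these 14 were lower and 0 higher. Other kinetochore and centromere genes had 23 of 32 below 0 (median -0.22, and -0.05 without wild type 15), with 1 lower and 0 higher at that level. Among them Sgo1, the shugoshin that protects cohesion at centromeres, was at 13.70, 20.33 and 16.46 CPM in p63 alphaKO, against 34.25, 30.15 and 53.36 CPM in wild type (-1.15, SE 0.31, 0.470), and Cenpi stood at -0.80 (-0.43 without p63 alphaKO 9).

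The anaphase-promoting complex and separase genes had 8 of 18 below 0 (median 0.06; Fbxo5, the inhibitor Emi1, at -0.92 and Anapc2 at 0.57). Other condensin and cohesin genes had 10 of 12 below 0 (median -0.16, and 0.03 without wild type 15 and p63 alphaKO 11). Among them Ncapg2 stood at -0.73 and Pds5b at -0.41 with all libraries, at -0.31 and -0.04 without p63 alphaKO 11, at -0.44 and -0.14 without wild type 15, and at -0.02 and 0.23 without both. DNA replication genes had 37 of 44 below 0 (median -0.36, and -0.23 without wild type 15). At an unadjusted p under 0.05, 9 of the 44 were lower, beside 3.35% of all genes tested, and 0 were higher. Mcm2 and Mcm4, subunits of the replicative helicase, stood at -1.01 and -0.92. The ratio of the summed mitosis genes to the summed replication genes was 1.71, 1.54 and 1.53 in p63 alphaKO and 1.57, 1.64 and 1.96 in wild type, and the groups overlapped. G1 cyclins and kinases had 8 of 10 below 0 (median -0.36, and -0.13 without wild type 15 and p63 alphaKO 11; Ccne1 at -0.91, Ccnd1 at -0.50), and genes of the DREAM complex and E2F factors 12 of 18 (median -0.32, and -0.13 without both). Rbl1, the pocket protein p107 of the DREAM complex, was at 13.70, 18.99 and 15.87 CPM in p63 alphaKO, against 27.02, 24.56 and 43.84 CPM in wild type (-0.90, SE 0.32, limma adjusted p = 0.716), and E2f7, a repressor of E2F targets, stood at -0.88 with all libraries and at -0.33 without p63 alphaKO 11. At an unadjusted p under 0.05, 1 of the 10 G1 genes and 1 of the 18 DREAM and E2F genes were lower. Of the 12 other condensin and cohesin genes 0 were lower, and in these lists 0 were higher. Of the 18 anaphase-promoting complex and separase genes 1 was lower and 1 higher.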

How the data were processed

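RNA was measured in 6 libraries of cultured primary epidermal keratinocytes, 3 p63 alphaKO and 3 wild type. Per the submitters' processing notes, the tools were STAR and HTSeq and the build mm10; their roles, versions and annotation are not given in these sources. The deposited values are CPM with 2 decimals, summing to between 999047 and 999508 per column. Dividing them by the CPM of a single read gave whole reads (100% of values above 0, tolerance 0.1 read), 1699716 to 3215333 per library. Every column carries a sample's title. Reads are not independent molecules, so intervals and floors cover counting error only.

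The test was limma 3.58.1 (R 4.3.3; two-sided; trended variance) on log2(CPM + 1) of the 11716 genes whose mean was 1 CPM or more, with Benjamini-Hochberg adjustment over all of them and a threshold of 0.05. On this scale the changes of low genes are understated. SE is limma's moderated standard error, and an adjusted p is limma's where no other tool is named. Other settings were pseudocounts of 0.5 and 5 CPM, either no filter or a minimum of 5 CPM, TMM or quantile scaling, a constant prior variance, edgeR 4.0.16 and DESeq2 1.42.0 on the recovered reads, leaving out each library, and leaving out wild type 15 with p63 alphaKO 11. The tests were checked on simulated counts. Members, lists and tests were chosen with earlier results of these data known. The genes given per library are, in each role, the 4 of smallest and the 1 of largest p, and the 2 of highest level; further ones were singled out after their values were seen. From each other list the 2 genes of smallest p are named. Levels of 3' reads were not divided by transcript length. Promoters are RefSeq's on GRCm38.p6, searched on both strands; spacing of the elements, the counts of separated groups without libraries and the transcript length classes (longest protein-coding transcript, GENCODE on GRCm38) were added after seeing the data.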

Additional observations from a re-analysis of the deposited data

How the results depend on the processing

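No member passed the threshold in any of the 16 alternatives, and 42 to 49 of the 50 genes stayed below 0. Their median was -0.64 to -0.52 over the 9 alternatives of pseudocount, filter, scaling, trend and tool, -0.76 to -0.38 over the 6 fits that left out 1 library, and -0.27 without wild type 15 and p63 alphaKO 11 together. The pooled SD of the library medians was 0.28 on the log2 scale. The median of all genes stayed within -0.01 to 0.04. Among the genes named, the sign turned with 1 library left out for Kifc1 (range -0.25 to 0.11; 0.111 without p63 alphaKO 10, 0.0319 without wild type 14) and Mad2l1 (range -0.59 to 0.01; 0.00288 without p63 alphaKO 10, 0.0121 without wild type 15), and without wild type 15 for Aurka (0.189, range from -0.62), Ndc80 (0.0735, from -0.46), Ska1 (0.088, from -0.59) and Kif18a (0.287, from -0.44). Without wild type 15 and p63 alphaKO 11 it turned for Aurka (0.0143), Cdca3 (0.0336), Kif4 (0.00105), Kif18a (0.258), Nusap1 (0.00332), Top2a (0.189), Smc2 (0.0372) and Pds5b (0.232); the cause was not tested. The smallest adjusted p of a member was 0.0804 (Ccna2, DESeq2) over all alternatives. No paired analysis was possible because the groups share no replicate numbers. Depth limits the members of few reads most: Aurkb, Cdc25c and Foxm1 had 4 to 6 reads in p63 alphaKO 11.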
